A study of Mus musculus with 2 samples.

Results

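Single-exon protein-coding genes are transcribed as 1 uninterrupted exon, so the whole gene body is exonic. The genes described here are protein-coding genes on the autosomes of mm9 whose protein-coding transcripts all have exactly 1 exon and whose longest transcript is at least 1 kb. Genes with symbols beginning with Olfr (olfactory receptors), Vmn (vomeronasal receptors), Tas2r (taste receptors), Hist (clustered histones), Gm, Rpl or Rps (ribosomal proteins) were left out. The vomeronasal receptor gene V1rd19, which carries an older symbol, stayed in. Of 21410 autosomal protein-coding genes, 2741 had only 1-exon protein-coding transcripts, 2003 of these were left out by symbol and 206 as shorter than 1 kb, which left 532 genes. Values are given for the 526 of them at which both libraries had at least 2 reads per kb in the surroundings.

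Chromatin of mouse embryonic stem cells (mESCs) was immunoprecipitated with a rabbit polyclonal antibody against Msl1 in 1 library and against Nsl1 in the other, and the DNA was sequenced. The cells were labelled wt, E14, passage P26, with the genetic background 129P2/OlaHsd, and no treatment or allele differs between the libraries. Each antibody had 1 library and the cells were of 1 line, so no value has a replicate error and no p-value is given. The libraries were also made with different kits and read lengths, so a difference between Msl1 and Nsl1 is one between 2 libraries, and antibody and library cannot be told apart. The study compared where the 2 complexes of the acetyltransferase Mof bind.

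Mof (Kat8, Myst1) acetylates histone H4 at lysine 16. It works within the MSL complex, of which Msl1 is the scaffold, and within the NSL complex, of which Nsl1 (Kansl1) is the scaffold. In mammals MSL is best known for binding in and around transcribed genes and NSL for binding at active promoters. Many genes without introns are retrogenes, copied from a processed mRNA, and others encode factors that are switched on quickly, such as immediate early transcription factors, or receptors of the G protein-coupled and Frizzled kinds.

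Reads were counted once per position and strand: 19483142 Msl1 reads of 50 bases and 24883001 Nsl1 reads of 36 bases. A value is the number of reads per kb in a window, divided by the local level, which is the number of reads per kb of the same library from 5 to 50 kb on both sides of the transcription start site (TSS). The TSS window reaches 500 bases to both sides, the transcript window runs from 500 bases after the TSS to the annotated end, and the window past the end holds the next 1000 bases. A window at 3 times the local level or more is said below to be called, or at 3-fold. The 95% intervals are exact Poisson or binomial intervals that cover counting error only. No Input library (chromatin without immunoprecipitation) was used, so a raised level that an Input would share was not taken out. The median local level at these genes was 9.5 Msl1 reads and 11.8 Nsl1 reads per kb, so the value of a single gene rests on few reads.

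The 532 genes were between 1001 and 7569 bases long, with a median of 1918 bases. As many as 126 were named only after a RIKEN cDNA clone. Another autosomal protein-coding record had the same symbol in 31, such as 1-exon records of Pde4d, Ssh2 and Zbtb20 beside the main gene. Records of other types were not searched for shared symbols. Some genes outside the 31, such as Pou3f1, Fzd10 and Actl9, overlap a pseudogene record of their own symbol. Whether these records are whole genes was not tested. Of the 532 genes, 150 overlapped another annotated gene and 130 had the start of another gene within 2 kb of their start or end. Here genes of any type were counted, also pseudogene records of the same symbol. A CpG-rich TSS (CpG observed to expected of 0.6 and a GC share of 0.5 or more) was found at 38.8% of the 526 genes, against 56.1% of all 16085 protein-coding genes tested. These 16085 autosomal genes, called all genes below, met the same limits of length, symbol and local level. They include the single-exon genes. Sox2 and Sox4, transcription factors of embryonic and neural cells that are often counted as intronless, did not meet the rule, because the annotation also gives each a transcript of 3 exons. Their Msl1 ratios were 1.53 at the TSS and 6.56 over the span of the gene for Sox2, and 3.82 and 3.80 for Sox4, while both stayed below 3 for Nsl1.

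The sequences before the TSS are shown for genes from the ends of the pattern described below, so that their base composition can be compared. Each line gives the 200 bases that precede the TSS, 5′ to 3′ on the strand of the gene, read from mm9. Capitals mark TATAAA between 40 and 20 bases before the TSS on the gene's strand. They also mark 3 motifs on either strand anywhere in the window, namely the GC box GGGCGG, then the CCAAT box, and lastly the palindrome TGACGTCA. The genes were the 3 highest for Msl1 over the transcript with Nsl1 below 3-fold at the TSS, and the 3 highest for Nsl1 at the TSS with Msl1 below 3-fold over the transcript. Genes with a neighbour or a RIKEN name were passed over, as was any on the chromosome that holds the Pcdhb protocadherin genes described below. Junb, which holds a TATAAA, was added after its sequence had been seen. The first 4 are genes with Msl1 over the transcript.
Ier2: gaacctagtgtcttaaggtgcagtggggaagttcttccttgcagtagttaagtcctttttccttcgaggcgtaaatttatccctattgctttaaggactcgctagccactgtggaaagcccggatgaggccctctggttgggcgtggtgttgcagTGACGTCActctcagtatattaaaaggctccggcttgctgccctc
Rbmxl2: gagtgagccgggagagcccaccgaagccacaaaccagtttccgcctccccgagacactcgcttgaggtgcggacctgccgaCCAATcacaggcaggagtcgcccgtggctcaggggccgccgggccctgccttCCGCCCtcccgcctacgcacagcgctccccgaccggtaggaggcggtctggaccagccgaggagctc
Ier5l: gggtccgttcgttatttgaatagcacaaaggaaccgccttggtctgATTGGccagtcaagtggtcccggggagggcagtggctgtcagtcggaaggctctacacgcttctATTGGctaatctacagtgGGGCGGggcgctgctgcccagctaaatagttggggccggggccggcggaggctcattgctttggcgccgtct
Junb: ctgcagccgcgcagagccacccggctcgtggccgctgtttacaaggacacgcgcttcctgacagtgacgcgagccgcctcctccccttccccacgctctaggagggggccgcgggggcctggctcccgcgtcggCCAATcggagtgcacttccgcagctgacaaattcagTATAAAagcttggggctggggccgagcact
The next 3 are genes with Nsl1 at the TSS.
Trmt12: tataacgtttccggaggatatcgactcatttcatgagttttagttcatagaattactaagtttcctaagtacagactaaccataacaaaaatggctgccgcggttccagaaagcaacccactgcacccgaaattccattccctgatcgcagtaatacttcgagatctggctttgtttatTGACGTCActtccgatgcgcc
Pabpc6: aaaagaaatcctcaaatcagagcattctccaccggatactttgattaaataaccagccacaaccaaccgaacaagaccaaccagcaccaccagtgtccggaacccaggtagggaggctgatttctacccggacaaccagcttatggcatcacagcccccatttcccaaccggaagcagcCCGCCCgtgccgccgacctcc
Ranbp6: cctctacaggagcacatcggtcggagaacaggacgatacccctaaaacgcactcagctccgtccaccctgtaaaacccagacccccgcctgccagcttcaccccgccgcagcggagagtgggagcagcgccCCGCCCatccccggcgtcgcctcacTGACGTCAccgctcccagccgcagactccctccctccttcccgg
These windows lie at chr8:87186752-87186951 (Ier2, minus strand), chr7:114352759-114352958 (Rbmxl2, plus), chr2:30329720-30329919 (Ier5l, minus), chr8:87502618-87502817 (Junb, minus), chr15:58704004-58704203 (Trmt12, plus), chr17:9862570-9862769 (Pabpc6, minus) and chr19:29887465-29887664 (Ranbp6, minus). They held between 7 CpGs (Ier2) and 19 CpGs (Rbmxl2 and Junb). The GC share was 50.5% before Ier2, 70.5% before Rbmxl2, 60% before Ier5l and 67% before Junb, and 43% before Trmt12, 54.5% before Pabpc6 and 67.5% before Ranbp6. TGACGTCA, the full cAMP response element, was found in the windows of Ier2, Trmt12 and Ranbp6.

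Over all promoters of the same length, 200 bases, TGACGTCA stood before 2.15% of 16187 genes and before 3.23% of the 526 single-exon genes. It was found before 5 of the 51 single-exon genes with Nsl1 at the TSS only (9.8%, interval 3.26 to 21.4%) and before 3 of the 59 with Msl1 over the transcript only (5.08%, interval 1.06 to 14.1%). These intervals overlap. TATAAA stood before 14 of the 526 genes (2.66%) and 1.7% of all genes, and before 1 of the 87 genes with Msl1 over the transcript. GGGCGG was found before 30.4% of the single-exon genes and 48% of all promoters, and CCAAT before 26.4% and 30.1%. By class, GGGCGG stood before 49.2% of genes with Msl1 only, 46.4% with both, 43.1% with Nsl1 only and 24.7% with neither. A match is a string of letters and was not tested as a binding site.

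At the TSS, Msl1 reached 3-fold at 121 of the 526 single-exon genes, 23% (interval 19.5 to 26.8%), while 28.2% of all 16085 protein-coding genes did. Nsl1 reached 3-fold at 79 genes, 15% (interval 12.1 to 18.4%), against a background of 28.2%. Single-exon genes were thus called less often at the TSS than all genes tested in both libraries, with intervals that do not overlap those of all genes (27.5 to 28.9%). Genes shorter than 1 kb and those left out by symbol were not counted on either side. With 1000 bases on both sides of the TSS, 51 single-exon genes (9.7%) were called for Nsl1. The share of all genes was not recomputed for that window. The short multi-exon genes described next were low too, at 19.3% for Msl1 (interval 17.3 to 21.5%) and 18.9% for Nsl1 (interval 16.9 to 21%), and both intervals overlap those of the single-exon genes. Multi-exon genes with a first exon of 1 kb or more were at 28.4% for Msl1 (interval 24.5 to 32.6%) and 13.5% for Nsl1 (interval 10.6 to 16.8%), which overlap as well. The medians were 1.69 for Msl1 and 1.49 for Nsl1, against 2.15 and 1.92 over all genes. Just inside and outside the threshold for Msl1 lay Csl at 3.03 and Purb at 2.99, and for Nsl1 Tspyl3 at 3 and Tssk6 at 2.99.

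Over the transcript the order was the other way round. Msl1 reached 3-fold over 87 transcripts, 16.5% (interval 13.5 to 20%), against 1.72% of all genes. Most genes are many times longer than these. Beyond 5 kb the transcript window also runs into the stretch that gives the local level, so window and level share bases there. Multi-exon genes that span 1 to 5 kb are therefore the closer comparison. Of 1458 such genes, 8.3% reached 3-fold (interval 6.93 to 9.83%). The match in length is loose. Of those called for Msl1 at the TSS, 231 of 282 were 2500 bases or longer, against 58 of 121 single-exon genes. The part of length in this difference was not tested. Nsl1 reached 3-fold over 15 transcripts, 2.85% (interval 1.6 to 4.66%), against 0.155% of all genes and 0.412% of the short multi-exon genes. With the window begun 1000 bases after the TSS, 3 of 362 transcripts (0.829%) were called for Nsl1. That share lies within the interval of the short multi-exon genes in the longer window (0.151 to 0.894%). This setting leaves out the 164 genes of 1000 to 1500 bases, which held 11 of the 15 calls of the main window. The 2 longer length classes held 2 calls each there, so most of the fall goes with leaving out the shortest genes. The windows past the end were mostly at the local level. There 10 genes (1.9%) were called for Msl1, against 1.01% of all genes, and 2 genes (0.38%) for Nsl1, against 1.01%. Against the genome-wide level, 43 windows (8.17%) were called for Msl1 and 10 (1.9%) for Nsl1. With a shift of 100 bases, 0 were called for Nsl1. The shares of all genes were not recomputed.

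Base composition at the TSS split the genes in both libraries. No Input was set beside this split, and whether an Input would show it too was not tested. Among the 204 genes with a CpG-rich TSS, Msl1 was at 3-fold at 108 TSSs (52.9%, interval 45.8 to 59.9%) and over 71 transcripts (34.8%, interval 28.3 to 41.8%). Among the 322 other genes it was at 3-fold at 13 TSSs (4.04%) and over 16 transcripts (4.97%). Nsl1 was at 3-fold at 63 CpG-rich TSSs (30.9%) and 16 others (4.97%, interval 2.87 to 7.94%). Of all genes without a CpG-rich TSS, 10% were at 3-fold for Nsl1 (interval 9.33 to 10.7%) and 7.05% for Msl1 (interval 6.47 to 7.67%), which overlaps the 4.04% of the single-exon genes (interval 2.17 to 6.8%). Within the CpG-rich class, how single-exon genes stood against other genes depended on the set they were compared with. The Msl1 share of 52.9% lay above the 39.1% of the short multi-exon genes (interval 35.3 to 43.1%). It also lay above the 44.8% of all CpG-rich genes (interval 43.7 to 45.8%), with intervals that meet at 45.8%. It overlapped the 46.1% of the genes with a long first exon (interval 40 to 52.3%). The Nsl1 share of 30.9% (interval 24.6 to 37.7%) overlapped the 35.2% of the short multi-exon genes (interval 31.5 to 39.1%), lay below the 42.4% of all CpG-rich genes (interval 41.4 to 43.5%), and lay above the 19.3% of the genes with a long first exon (interval 14.8 to 24.6%), with intervals that meet at 24.6%. Over the transcript, Msl1 was called at 16% of the CpG-rich short multi-exon genes (interval 13.2 to 19.1%).

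In the stretch from 500 to 1000 bases after the TSS, which is exonic in all these genes, 145 of 526 genes (27.6%) were at 3-fold for Msl1, near the 30.2% of all genes. Nsl1 was at 3-fold there in 30 genes (5.7%, interval 3.88 to 8.04%) and in 3.61% of all genes (interval 3.33 to 3.91%), and these intervals overlap. Multi-exon genes with a first exon of 1 kb or more, whose first kb is also exonic, were at 42.7% for Msl1 (interval 38.3 to 47.3%) and 4.5% for Nsl1. The short multi-exon genes were lower than the single-exon genes there, at 21.4% for Msl1 (interval 19.3 to 23.6%, against 23.8 to 31.6%) and 1.99% for Nsl1 (interval 1.34 to 2.84%).

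Around the TSS the Msl1 reads of the 121 called genes rose after the start and were highest from 200 to 250 bases after it, at 6.65 times the local level. They stayed above the midpoint between that peak and the local level from 100 to 1100 bases, a width of 1000 bases. The width was 500 bases in the short multi-exon genes and 1150 bases in the genes with a long first exon. Nsl1 reads of the 79 called genes were highest in the last 50 bases before the TSS, at 8.91 times the local level, with a width of 500 bases against 300 bases in both other sets. The first 500 bases after the TSS held 1.81 times the Msl1 reads of the 500 bases before it (interval 1.71 to 1.92), and 1.17 times the Nsl1 reads (interval 1.11 to 1.24).

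**Figure D1:**
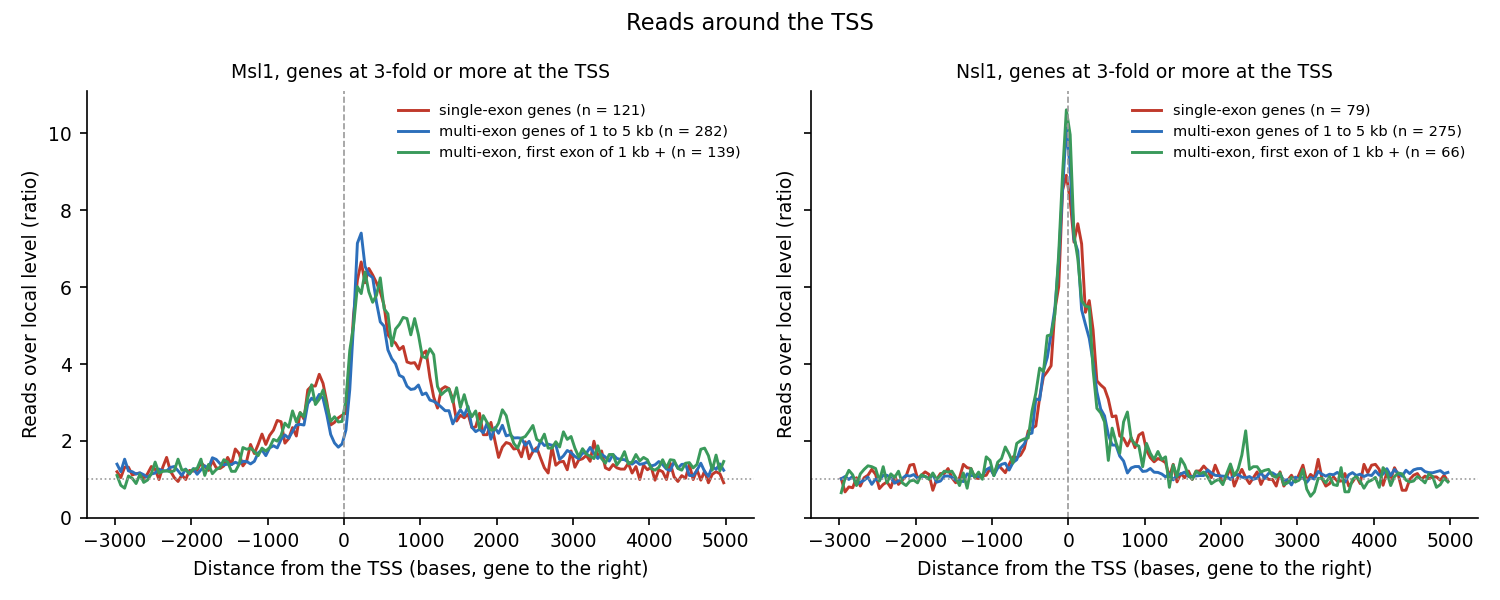
Reads over the local level (ratio) in bins of 50 bases against distance from the TSS, for Msl1 (left) and Nsl1 (right), in single-exon genes and both multi-exon sets at 3-fold or more at the TSS in that library; each line is a sum over genes. Msl1 peaked 200 to 250 bases after the TSS at 6.65 in the single-exon genes and declined slowly, while Nsl1 peaked within 50 bases before the TSS at 8.91.

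Summed over the called genes, Msl1 reads per kb in the transcript window were 0.654 of those in the TSS window (interval 0.631 to 0.678), and Nsl1 reads 0.275 (interval 0.263 to 0.289). These genes were chosen for a high TSS value, the denominator, and over all 526 genes the ratios were 0.905 and 0.635. The called short multi-exon genes gave 0.598 for Msl1 and 0.222 for Nsl1, and both lie outside the intervals of the single-exon genes. Those intervals cover counting error in the summed reads, not the spread between genes. The multi-exon genes were also longer more often. For Msl1, 231 of 282 were 2500 bases or longer, against 58 of 121, and the part of length was not tested. Between 500 and 1000 bases after the TSS the Msl1 level was 1.03 times that of the TSS window in single-exon genes, 0.949 in short multi-exon genes and 1.21 in genes with a long first exon. For Nsl1 it was 0.434, 0.298 and 0.37. By part of the transcript, the Msl1 level of the called genes was 4.79 times the local level in the 5′ UTR, 4.64 in the coding sequence and 2.11 in the 3′ UTR. The Nsl1 level was 7.19, 2.89 and 1.24. These parts lie at increasing distance from the TSS, so part and distance cannot be told apart.

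Between 1000 and 2500 bases after the TSS, the Msl1 level went with the length of the transcript. In the first 500 bases it was 5.35, 5.02 and 6.04 from the shortest to the longest class. The longest class was thus highest from the start, so level and reach cannot be told apart. From 1000 to 1500 bases after the TSS the Msl1 level was 2.43 in the 21 called genes of 1000 to 1500 bases (interval 2.14 to 2.75). It was 3.25 in the 42 genes of 1500 to 2500 bases and 3.88 in the 58 longer genes (interval 3.65 to 4.12). From 1500 to 2000 bases, past the end of every gene in the shortest class, the levels were 1.39, 2.13 and 3.04. From 2000 to 2500 bases they were 1.38, 1.56 and 2.08, and from 2500 to 3000 bases the 3 classes lay between 1.38 and 1.57, with overlapping intervals. Nsl1 was at 1.14, 1.62 and 1.36 from 1000 to 1500 bases and within 0.984 to 1.26 from 1500 to 2000 bases.

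**Figure D2:**
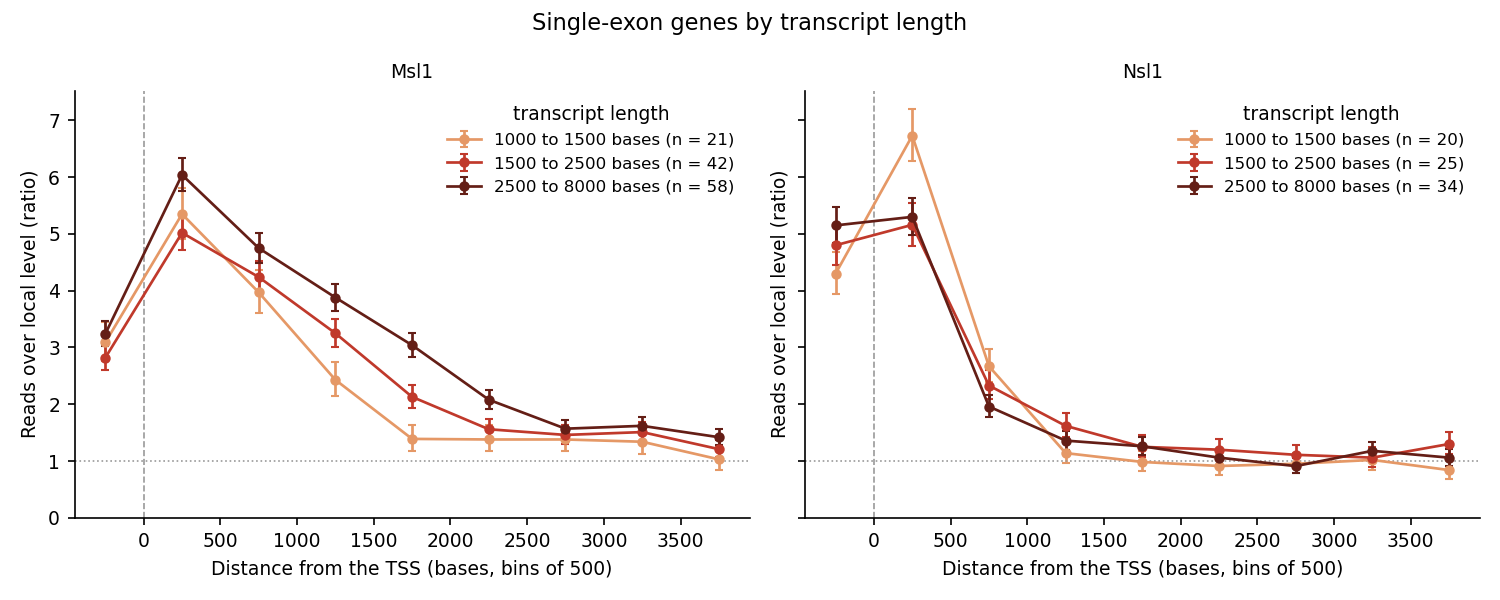
Reads over the local level (ratio) in bins of 500 bases against distance from the TSS, for single-exon genes at 3-fold or more at the TSS, in 3 classes of transcript length; bars are 95% Poisson intervals. The Msl1 level from 1500 to 2000 bases was 1.39, 2.13 and 3.04 from the shortest to the longest class, while the Nsl1 levels there lay between 0.984 and 1.26.

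Set beside multi-exon genes of the same length class, the summed Msl1 level of the longer single-exon classes was higher from 1000 to 1500 bases. From 2000 to 3000 bases it was no higher. The intervals cover counting error in summed reads and not the spread between genes, so a difference between the gene sets was not tested. In the shortest class the level from 1000 to 1500 bases was 2.43 (interval 2.14 to 2.75), against 2.42 (interval 1.96 to 2.97) in only 6 multi-exon genes. In the class of 1500 to 2500 bases the level there was 3.25 (interval 3.01 to 3.5), against 2.76 (interval 2.56 to 2.97) in 45 multi-exon genes. From 1500 to 2000 bases it was 2.13 (interval 1.94 to 2.34) against 2.33 (interval 2.15 to 2.52), and from 2000 to 2500 bases 1.56 (interval 1.4 to 1.74) against 1.85 (interval 1.69 to 2.03). Genes over 2500 bases differed already near the TSS. There the single-exon genes were at 6.04 against 5.51 in the first 500 bases and 4.75 against 3.75 in the next 500. In the class of 1500 to 2500 bases the values were 5.02 against 5.41 and 4.24 against 4.42. In genes over 2500 bases the levels were 3.88 against 2.95 from 1000 to 1500 bases and 3.04 against 2.48 from 1500 to 2000 bases. From 2000 to 2500 bases they were 2.08 (interval 1.92 to 2.26) and 2.13 (interval 2.05 to 2.21), and from 2500 to 3000 bases the multi-exon genes were higher, at 1.82 (interval 1.74 to 1.89) against 1.57 (interval 1.43 to 1.73). The match in length is loose in this class, since the multi-exon genes end at 5 kb and the single-exon genes at 7569 bases.

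Msl1 fell across the annotated end. The last 500 bases of the 121 called genes held 1249 Msl1 reads and the 500 bases after the end held 940, a ratio of 1.33 (interval 1.22 to 1.45). The ratio was 1.08 in short multi-exon genes (interval 1.02 to 1.14) and 0.963 in genes with a long first exon, whose ends lie far from the TSS. For Nsl1 the 79 called genes held 587 and 475 reads, a ratio of 1.24 (interval 1.09 to 1.4), against 0.901 and 0.784. In the genes without a neighbouring gene the ratios were 1.5 for Msl1 and 1.43 for Nsl1. The ends of single-exon genes lie nearer to the TSS than those of the other sets, and the part of that distance was not tested.

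**Figure D3:**
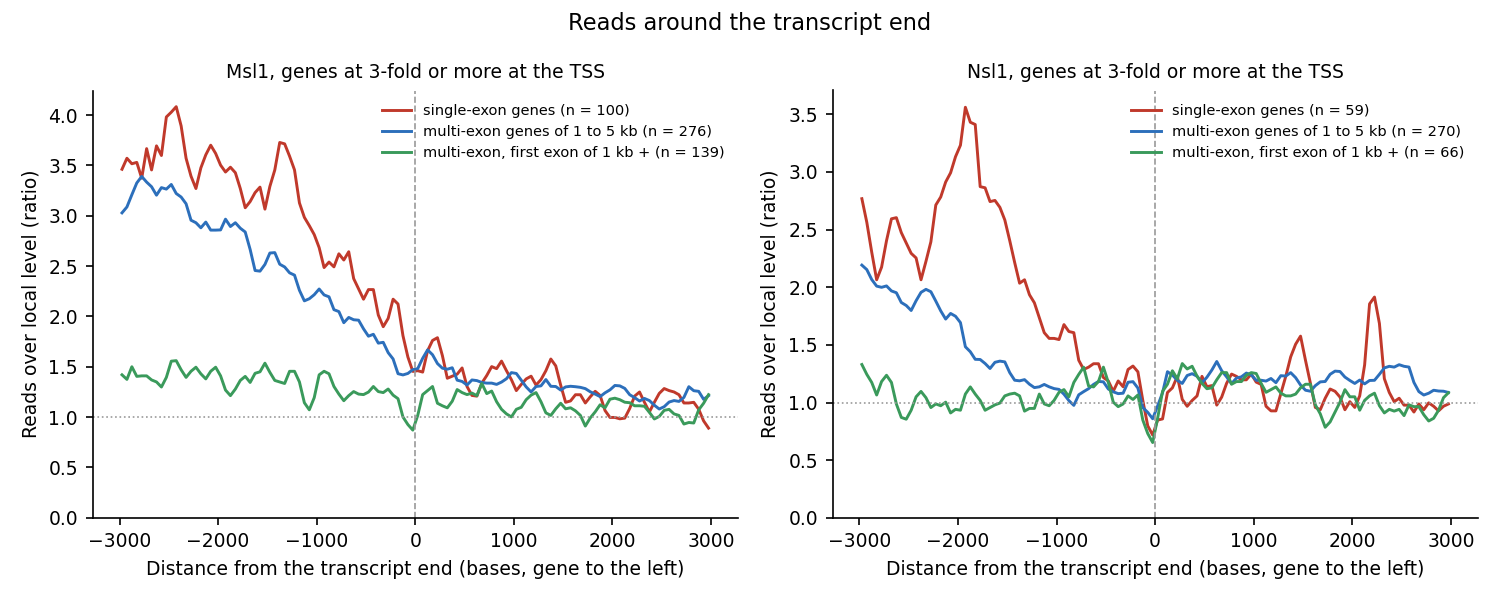
Reads over the local level (ratio) against distance from the annotated transcript end, as a running mean of 3 bins of 50 bases, for genes of at least 1.5 kb at 3-fold or more at the TSS in that library. Over all 121 called single-exon genes, Msl1 fell from 1249 reads in the last 500 bases to 940 in the next 500.

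Gene by gene, Msl1 over the transcript and Nsl1 at the TSS coincided in part. Of the 87 genes with Msl1 over the transcript, 28 (32.2%) were also at 3-fold for Nsl1 at the TSS, which is 35.4% of the 79 genes with Nsl1. At the TSS itself 46 genes were called for both, 38% of the Msl1 genes and 58.2% of the Nsl1 genes. Of the 121 genes with Msl1 at the TSS, 53 (43.8%, interval 34.8 to 53.1%) were also called over the transcript. Among the short multi-exon genes the share was 28% (interval 22.9 to 33.6%). Those genes were more often 2500 bases or longer, and the part of length was not tested. Of the 87 single-exon genes with Msl1 over the transcript, 34 were below 3-fold at the TSS and 53 (60.9%, interval 49.9 to 71.2%) were called there too. The share called at the TSS too was 65.3% in the short multi-exon genes and 64.1% in all genes, both within that interval. Among the short multi-exon genes, Nsl1 at the TSS was called at 24.8% of those with Msl1 over the transcript (interval 17.4 to 33.5%), which overlaps the 32.2% of the single-exon genes (interval 22.6 to 43.1%). Among all genes it was 29.7%. Taken from the Nsl1 genes, the share with Msl1 over the transcript was 10.9% in the short multi-exon genes (interval 7.48 to 15.2%) and 35.4% in the single-exon genes (interval 25 to 47%). Msl1 over the transcript was itself called more often in single-exon genes. At the TSS, 41.8% of the Msl1 genes of the short multi-exon set and 49.3% of those among all genes were also called for Nsl1, against 38% of the single-exon genes (interval 29.3 to 47.3%). Of the Nsl1 genes, 58.2% of the single-exon genes (interval 46.6 to 69.2%), 42.9% of the short multi-exon genes (interval 37 to 49%) and 49.3% of all genes were also called for Msl1. In all, 343 single-exon genes (65.2%) were called in none of the 3 windows, against 67.4% of the short multi-exon genes, within the interval of 61 to 69.3%, and 57% of all genes. Of the 28 genes with both, 27 had a CpG-rich TSS (96.4%). The share was 74.6% in the 59 genes with Msl1 over the transcript only, 70.6% in the 51 with Nsl1 only and 25% in the 388 with neither.

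**Figure D4:**
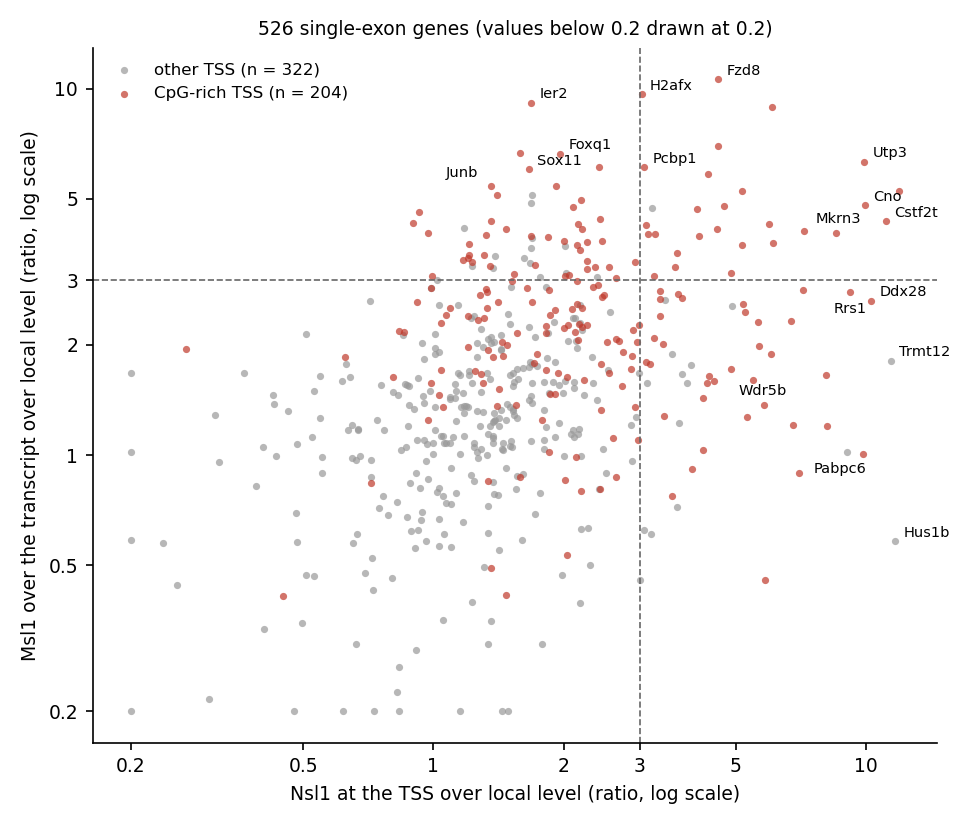
Each point is 1 of the 526 single-exon genes, by its Nsl1 ratio at the TSS (horizontal, log scale) and its Msl1 ratio over the transcript (vertical, log scale), coloured by CpG-rich (n = 204) or other (n = 322) TSS; dashed lines mark 3-fold. The upper right quadrant holds 28 genes, the upper left 59 and the lower right 51.

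The highest Msl1 ratio over a transcript was that of Fzd8, a Frizzled receptor for Wnt proteins, at 10.6 (83 reads, interval 8.43 to 13.1). Its TSS held 45 Msl1 reads and 24 Nsl1 reads, ratios of 16.3 and 4.56. The local level around Fzd8 was only 2.76 Msl1 reads per kb, and its 83 reads were fewer than those of H2afx and Ier2, which follow in the order. H2afx, which encodes the histone variant that is phosphorylated at DNA breaks, had a Msl1 ratio of 9.65 over the transcript (109 reads, interval 7.93 to 11.6) and 3.79 at the TSS. Its Nsl1 ratio was 3.03 at the TSS and 1.36 over the transcript. Ier2, an immediate early gene, had a Msl1 ratio of 9.16 over the transcript (147 reads, interval 7.73 to 10.8) and 3.25 at the TSS, with Nsl1 at 1.68 and 1.95. In both H2afx and Ier2 the Msl1 level was higher over the transcript than at the TSS.

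The next genes in that order were 1700030C10Rik (8.91, on 27 reads at a local level of 3.12 reads per kb), 2700073G19Rik (6.99), Rbmxl2 (6.66), Foxq1 (6.65), Utp3 (6.32), Ier5l (6.13) and Pcbp1 (6.12). Rbmxl2 is a retrogene of the RNA-binding protein gene Rbmx, Utp3 acts in the processing of ribosomal RNA and Pcbp1 binds poly(rC) in RNA. The start of Alkbh1 lies 178 bases after that of 2700073G19Rik, and A530084C06Rik runs against Foxq1 and overlaps it, so their reads cannot be told apart. Along Foxq1, Msl1 was at 6.24, 11.6, 6.83 and 8.91 times the local level in the 4 successive stretches of 500 bases from the TSS, and at 2.67 in the fifth. Along Ier2, which ends at 1522 bases, the values were 5.86, 10.7 and 8.02, and 3.69 in the fourth stretch, beyond its end. Past the end of Pcbp1 the Msl1 ratio was still 4.9 (58 reads). This was the highest past-end value after Fzd8 (5.44, 15 reads), and Pcbp1 was 1 of the 2 genes at 3-fold there for Nsl1 (3, 42 reads). With a shift of 100 bases, 0 genes were called there for Nsl1.

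Nsl1 at the TSS was led by 4632415L05Rik (11.9, 81 reads), Hus1b (11.7, 137 reads) and Trmt12 (11.4, 123 reads). Hus1b is a paralog of the checkpoint clamp gene Hus1 and lies within Exoc2, on the same strand and downstream of its start. Trmt12 acts in the synthesis of the modified base wybutosine in tRNA. The Msl1 ratio over the transcript was 0.582 for Hus1b (interval 0.158 to 1.49) and 1.81 for Trmt12 (interval 1.42 to 2.28), and neither has a CpG-rich TSS by the cutoff used. Cstf2t, a retrogene of the polyadenylation factor gene Cstf2, had a Nsl1 ratio of 11.1 at the TSS (112 reads) and a Msl1 ratio of 4.35 over the transcript (97 reads). Ddx28, a mitochondrial RNA helicase, had 10.3 and 2.64. Cno, a subunit of the BLOC-1 complex of lysosome-related organelles, had 9.94 and 4.81.

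Utp3 was the gene that stood among the first 10 in both orders: 114 Nsl1 reads at the TSS gave 9.91 (interval 8.18 to 11.9) and 75 Msl1 reads over the transcript gave 6.32 (interval 4.97 to 7.92). Rrs1, a regulator of ribosome assembly, had 9.19 and 2.78. Pabpc6, a gene of the cytoplasmic poly(A)-binding protein family, had 9.06 and 1.02, and 4933427E11Rik, which overlaps the start of Jrk on the other strand, had 9.83 and 1.01. Along Trmt12, Nsl1 was at 13.6, 2.41, 2.41 and 0.929 in successive stretches of 500 bases, and along Cstf2t at 17.6, 2.77, 1.38 and 1.98.

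Reads of both libraries were set against each other at the 122 TSSs with at least 60 reads in all. The ratio of Msl1 to Nsl1, scaled to the reads of each library, had a median of 1.33 and ran from 0.225 to 5.54, with 72 genes above 1. It was not computed for other genes, so whether these values differ from those of genes with introns was not tested. The lowest were Pabpc6 (0.225, from 16 Msl1 and 91 Nsl1 reads), Wdr5b (0.249, from 14 and 72 reads), a paralog of Wdr5, and Hus1b (0.261, from 28 and 137 reads). The highest were A530084C06Rik (5.54, from 65 and 15 reads), 4930542C12Rik (4.16, from 52 and 16) and B430305J03Rik (3.91, from 52 and 17). Each of these 3 overlaps a gene on the other strand, Foxq1, Ddx43 and Rap2b, so the reads may belong to either gene.

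**Figure D5:**
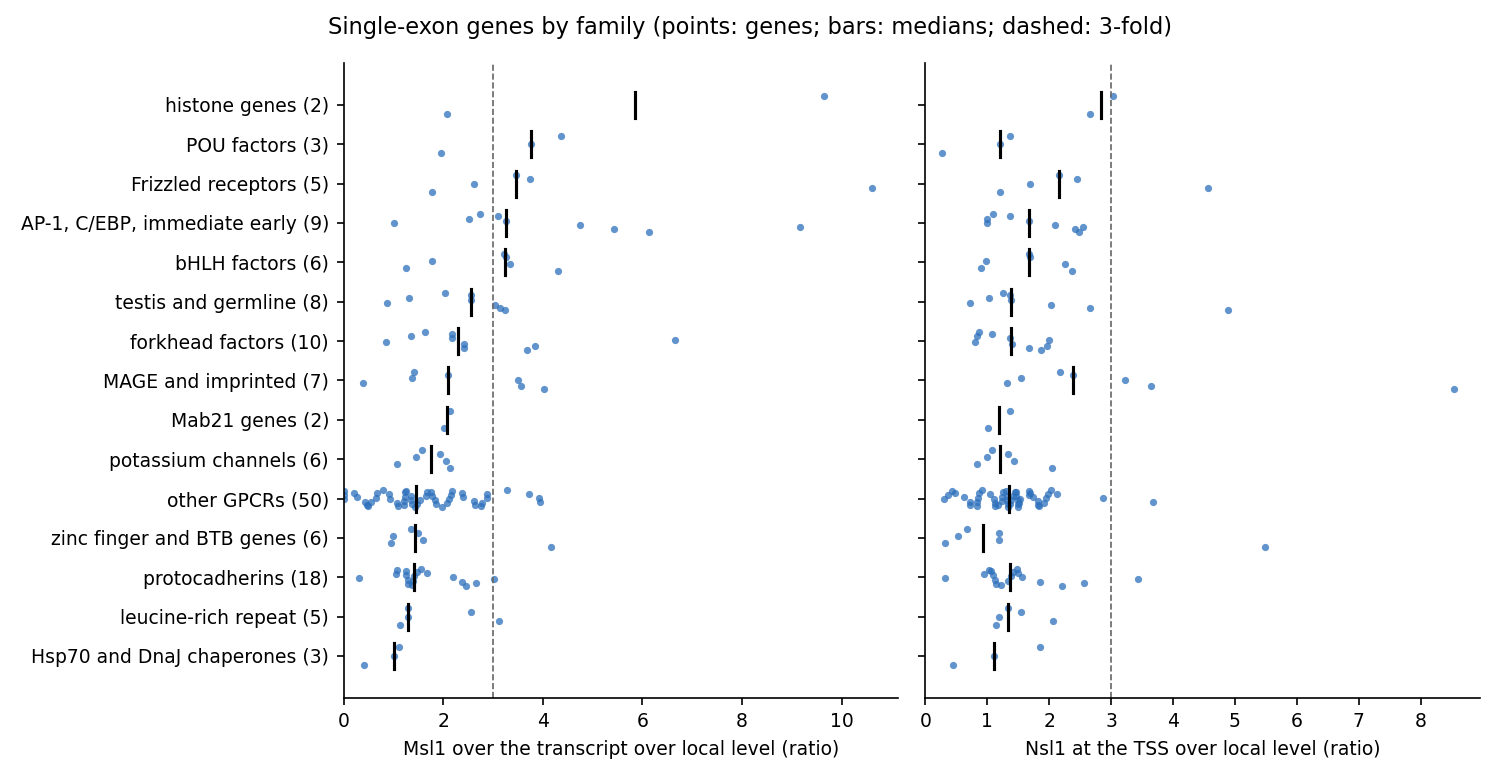
Each point is a single-exon gene of the named family, by its Msl1 ratio over the transcript (left) and its Nsl1 ratio at the TSS (right), over the local level; bars are medians, the number of genes is in brackets and the dashed line marks 3-fold. The list of AP-1, C/EBP and immediate early genes and the bHLH, POU and Frizzled lists have Msl1 medians between 3.24 and 3.77. No gene of the AP-1, C/EBP and immediate early, bHLH, POU or forkhead lists reaches 3-fold for Nsl1.

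The families below are described by their counts and medians with no test, and over all 526 genes 23% of TSSs and 16.5% of transcripts were at 3-fold for Msl1 and 15% of TSSs for Nsl1. Of the 9 AP-1, C/EBP and other immediate early genes, 7 were at 3-fold for Msl1 at the TSS and 6 over the transcript, and none for Nsl1 in either window. Their medians were 3.26 for Msl1 over the transcript and 1.68 for Nsl1 at the TSS, against 1.57 and 1.49 over the 526 genes. The list was made by symbol. It holds Klf14, Cebpa and a Dusp8 record that overlaps the main Dusp8 gene, which need not be immediate early genes. Junb, a subunit of AP-1, had 64 Msl1 reads at the TSS (4.24) and 107 over the transcript (5.43, interval 4.45 to 6.56), and 23 Nsl1 reads at the TSS (1.36, interval 0.864 to 2.05). Rhob, a small GTPase, had Msl1 at 5.89 at the TSS and 4.75 over the transcript. Ier5 had 3.7 and 3.26, and Ier5l had 3.62 and 6.13. The bZIP factor genes Cebpa and Cebpb were on opposite sides of the threshold, at 4.65 and 2.73 for Cebpa and at 2.04 and 3.09 for Cebpb. The start of Tmem189 lies 907 bases after that of Cebpb on the other strand, so the reads there may belong to either gene. The Klf14 values were 6.1 at the TSS and 2.52 over the transcript.

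Of 10 forkhead factor genes, 6 were at 3-fold for Msl1 at the TSS and 3 over the transcript, and the highest Nsl1 ratio at a TSS was 2 (Foxd3). The medians were 2.29 for Msl1 over the transcript and 1.38 for Nsl1 at the TSS. Foxd3, a factor of pluripotent and neural crest cells, had Msl1 at 4.05 (37 reads) and 3.85 (66 reads). Foxd4 was at 1.64 at the TSS and 3.68 over the transcript. Foxc1 (4.4), Foxd1 (4.19), Foxl2 (3.77) and Foxe1 (3.43) were at 3-fold at the TSS and between 1.36 and 2.41 over the transcript. Foxc1 had 44 Msl1 reads and 10 Nsl1 reads at its TSS.

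The bHLH genes, 6 in all, specify neural and other lineages. Of them, 3 were at 3-fold for Msl1 at the TSS and 4 over the transcript, with none for Nsl1, and the medians were 3.24 and 1.68. Bhlhe22 led with 6.03 and 4.31, from 36 and 69 Msl1 reads, and had 7 Nsl1 reads at the TSS (0.899). Olig1 and Olig3, factors of the oligodendrocyte lineage and the dorsal neural tube, were at 3.26 and 3.34 over the transcript, and Atoh1 at 3.22. Of the 3 POU factor genes, none was at 3-fold at the TSS and 2 were over the transcript for Msl1, with medians of 3.77 for Msl1 over the transcript and 1.21 for Nsl1 at the TSS. Pou3f3 (Brn1) was below 3-fold in both windows, at 1.52 and 1.95. Pou3f1 (Oct6) and Pou3f2 (Brn2) were below 3-fold at the TSS, at 1.66 and 1.9, and above it over the transcript, at 4.36 (151 reads, interval 3.69 to 5.12) and 3.77 (33 reads). Along Pou3f1, Msl1 climbed from 1.74 in the first 500 bases to 3.62 and 7.96 in the next ones. Sox11, the 1 Sox gene that met the rule, had 29 Msl1 reads at the TSS (4.57) and 58 over the transcript (6.04, interval 4.59 to 7.81), and Msl1 was also at 3.63 past its end. Nsl1 was at 1.66 and 0.646.

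Of 5 Frizzled genes, 3 were at 3-fold for Msl1 in both windows: Fzd8, Fzd1 (4.47 and 3.74) and Fzd10 (3.07 and 3.46). The medians were 3.46 for Msl1 over the transcript and 2.15 for Nsl1 at the TSS. Fzd8 was the only one at 3-fold for Nsl1, and it stood exactly at the threshold over the transcript (3, from 45 reads). The 50 other G protein-coupled receptor genes were much lower. They had medians of 1.45 for Msl1 over the transcript and 1.36 for Nsl1 at the TSS, with 4 and 1 of 50 at 3-fold. The highest were Gpr27 (3.95 for Msl1 over the transcript) and Gpr135 (3.67 for Nsl1 at the TSS). In the other windows, 5 of 50 were at 3-fold for Msl1 at the TSS, led by Htr1b (4.81). For Nsl1 over the transcript 3 of 50 were, led by Prlhr (3.74).

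The 18 protocadherin genes, all of the clustered Pcdhb genes of chromosome 18, had medians of 1.4 for Msl1 over the transcript and 1.36 for Nsl1 at the TSS. Pcdhb1 was the 1 gene of them at 3-fold at the TSS, at 3.08 for Msl1 and 3.43 for Nsl1. The 6 potassium channel genes reached at most 2.13 for Msl1 over the transcript (Kcna5), while at the TSS their Msl1 median was 2.18 and Kcna3 was at 3.34, and the 5 leucine-rich repeat genes at most 3.11 (Lrrc10b). The 8 testis and germline genes were higher, with a median of 2.56 and 3 of 8 at 3-fold for Msl1 over the transcript. The highest of them, Actl9 (3.24), rests on 17 reads. Over the same transcripts the Nsl1 median was 2.01, against 1.24 over the 526 genes, with 1 of 8 at 3-fold (Actl7b, 3.02). At the TSS their Msl1 median was 1.3. Pgk2 had 18 Nsl1 reads at the TSS (4.89), and Nanos1 had Msl1 at 5.03 at the TSS. Neither of the 2 Mab21 genes reached 3-fold in either library, and the highest value was 2.48 (Mab21l2, Msl1 at the TSS). Among the 3 Hsp70 and DnaJ chaperone genes the highest Msl1 ratios were 1.67 at the TSS (Dnajb3) and 1.12 over the transcript (Dnajb7).

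In a list of 7 MAGE and other imprinted genes, which does not hold every such gene (Ndnl2 and Dio3 are not on it), 3 were at 3-fold for Msl1 over the transcript and 3 for Nsl1 at the TSS, with medians of 2.09 and 2.39. Mkrn3, an imprinted gene of the Prader-Willi region, led with 55 Msl1 reads (8.79) and 80 Nsl1 reads (8.54) at the TSS. H2afj, a histone gene called for Msl1 over the transcript, is not on the list of histone genes outside the clusters. That list held 2 genes, H2afx and H1fx. Both were at 3-fold for Msl1 at the TSS, and 1 was over the transcript, where the median was 5.86. H1fx, which encodes a linker histone, had Msl1 at 5.12 at the TSS and 2.07 over the transcript, with Nsl1 at 2.65 and 1.92. The start of Gm5577 lies 599 bases after that of H1fx, on the other strand. Of the 6 zinc finger and BTB genes, Zfp830 was at 4.68 for Msl1 and 5.49 for Nsl1 at the TSS, and its TSS lies 24 bases from the start of Cct6b on the other strand. Zfp648 was at 4.17 for Msl1 over the transcript. The medians of the 6 genes were 1.59 for Msl1 at the TSS, 1.43 over the transcript and 0.927 for Nsl1 at the TSS. In each of these windows 1 of 6 was at 3-fold. None of the symbols on the kelch and insulin receptor substrate lists met the rule, although the kelch genes Klhdc7b and Ccin, which are not on the list, did.

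The longest genes with Msl1 showed how far the reads reached in 1 exon. Pigm, a mannosyltransferase of the glycosylphosphatidylinositol anchor pathway, is the longest, at 7569 bases. Its Msl1 ratios in successive stretches of 500 bases were 9.05, 7.91, 5.65, 2.71, 1.81 and 0.452. Ndnl2 (5946 bases), a MAGE family gene, gave 9.82, 7.61, 4.44 and 1.9. Exoc8 (7406 bases), a subunit of the exocyst, had 4.8, 2.64 and 1.56, and Fem1a (6816 bases) had 4.81, 3 and 1.92. From the fourth stretch on, Msl1 was at or below 2.71 in these 4 genes, apart from single later stretches of Pigm (3.17 in the seventh) and the fifth to seventh of Ndnl2 (3.17, 3.8 and 5.7). Their Nsl1 ratios at the TSS ran from 2.73 (Fem1a) to 6.79 (Exoc8). The start of Gm505 lies 181 bases before that of Exoc8 on the other strand, so the reads there may belong to either gene.

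Some of the calls cannot be assigned to the single-exon gene. At 38 of the 526 genes another protein-coding gene starts within 500 bases of the TSS. Msl1 was at 3-fold at 18 of these and Nsl1 at 15, against 103 and 64 of the other 488, while Msl1 over the transcript was called at 3 of 38 and 84 of 488. Of the 15 genes with Nsl1 over the transcript, 7 were RIKEN-named. The highest were 1700013N18Rik (7.65), which overlaps Evi5, A730015C16Rik (6.9), whose transcript holds the start of Kti12 762 bases after its own, and 4930442H23Rik (6.39), 69 bases from the start of Dapk3. Among the 31 genes that share a symbol with another protein-coding record, the median Msl1 ratio over the transcript was 1.01 and that of Nsl1 at the TSS 1.03. In 374 genes with neither kind of name, 89 TSSs (23.8%) and 70 transcripts (18.7%) were at 3-fold for Msl1 and 62 TSSs (16.6%) for Nsl1. These still hold genes that overlap a pseudogene record of their own symbol. Of all 532 genes, 469 had 80% or more unique positions in every window for reads of 50 bases. For reads of 36 bases it was 450 of them.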

How the data were processed

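The authors cross-linked the cells, sheared the chromatin, and sequenced the Msl1 library (NEXTFlex) and the Nsl1 library (NEBNext) as single reads. Per the submitters' processing notes, CASAVA 1.8.2 and Bowtie 0.12.7 were used, and the paper's methods give mm9 and unique reads. The authors deposited read positions, 1 line per aligned read, with an alignment score, the same on every line, that was not used here. No peak call or normalized value was used, and an Input library was not used here.

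The Msl1 library held 23888517 reads and the Nsl1 library 26084098. Of the nuclear reads, 81.7% and 95.4% were kept as distinct in position and strand. Each 5′ end was moved by 107 bases (Msl1) or 67 bases (Nsl1), which is 1 of the 2 equal parts of a fragment length estimated from the strands (215 and 135 bases). Gene models were those of GENCODE vM1 for mm9, another release than the study's. Counting used numba 0.67.0, pandas 2.3.3 and numpy 2.4.6 under Python 3.11.15. Exact 95% Poisson and binomial intervals came from scipy 1.17.1, and figures from matplotlib 3.10.9. The counting was tested on simulated data.

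Genes were named by rule: the 10 highest for Msl1 over the transcript and for Nsl1 at the TSS with at least 20 reads, the 3 highest and 3 lowest ratios of the libraries, the 5 longest with Msl1 (1 of them is not reported here), and the called members or the highest member of each gene list. Other genes, such as those in the examples of neighbours, of the threshold and of low values, were named after their values were seen. The genes described and the gene lists were chosen with earlier results of these data known. The alternatives kept repeated reads, used the genome-wide level, another shift or other windows, or left out genes with neighbours, with few unique positions, or with RIKEN names or shared symbols.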

Additional observations from a re-analysis of the deposited data

How the results depend on the processing

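Of 70 values recomputed, 48 stayed within 1.5 times the count reported, or within the interval of a ratio, and 22 moved. The shares of all genes were not recomputed under these settings. Without genes that have a neighbour, 321 genes remained. Of these, 61 were called for Msl1 and 43 for Nsl1 at the TSS, 57 for Msl1 over the transcript and 1 for Nsl1 past the end. There the transcript to TSS ratio was 0.751 for Msl1 and 0.302 for Nsl1, and the ratio across the end 1.5 and 1.43. With 1000 bases on both sides of the TSS, 51 genes were called for Nsl1. With the transcript window from 1000 bases on, in 362 genes, 55 were called for Msl1 and 3 for Nsl1. Against the genome-wide level, 131 transcripts and 43 windows past the end were called for Msl1 and 10 windows past the end for Nsl1, and the transcript to TSS ratios were 0.722 and 0.317. Summed over all genes these were 0.905 and 0.635. With 1000 bases on both sides of the end the Msl1 ratio was 1.52. A shift of 100 bases left 0 genes called for Nsl1 past the end. Without RIKEN names and shared symbols, an alternative chosen after seeing the data, 374 genes remained, with 8 called for Nsl1 over the transcript and 1 past the end. The smaller sets call fewer genes by construction, and for the other changes the cause was not tested. No paired analysis was possible because each antibody had 1 library. With the few reads of a single gene, differences between single genes near 3-fold could not be resolved at this depth.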
